A study of Mus musculus with 2 samples.

Results

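The mouse Hox genes in their 4 clusters were described in T-helper 1 cells: Hoxa on chromosome 6, Hoxb on chromosome 11, Hoxc on chromosome 15 and Hoxd on chromosome 2. Members were the protein-coding genes of the GENCODE M21 annotation whose symbols start with Hoxa, Hoxb, Hoxc or Hoxd followed by a number, and 39 of 21938 coding genes met this rule (11 Hoxa, 10 Hoxb, 9 Hoxc and 9 Hoxd genes). Every open region from 20 kb before the first to 20 kb after the last gene of a cluster was counted once, which gave 100 of 104044 regions. ATAC-seq, in which a transposase cuts DNA that is not covered by nucleosomes or other proteins, had been applied to primary cells labelled T-helper 1, from mice of strain C57BL/6NJ. These are interferon gamma-secreting cells of the CD4+ T lineage, and the labels point to a protocol for differentiating CD4+ T cells. There was 1 group with 2 biological replicates and no treatment or second genotype, the sex was not collected, the age was unknown, and both replicates carried the same donor identifier with separate biosamples. Coordinates follow mm10. The region names carry further words of unstated meaning, among them ASTARR and insert, so the name of the assay follows the labels.

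Hox proteins are homeodomain transcription factors that give cells their place along the body axis. The genes lie in the order of their paralogue numbers, with paralogue 1 at the 3′ end of a cluster and paralogue 13 at the 5′ end, and in the embryo they are switched on in that order. Polycomb complexes keep them silent where they are not used and Trithorax (MLL) complexes keep them active. Blood stem cells use many Hoxa and Hoxb genes, which are lowered as lymphocytes mature.

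The sequences around the strongest region of Hoxa, of Hoxc and of Hoxd are shown first, because these regions differ in kind. Each window spans 201 bases, 100 on either side of the summit in replicate 1, on the plus strand of the mouse reference (GRCm38.p6, the mm10 assembly, of strain C57BL/6J and not of the strain used). Capitals mark the dinucleotide CG, which is clustered in CpG-island promoters.
Hoxa4 promoter, chr6:52191926-52192126: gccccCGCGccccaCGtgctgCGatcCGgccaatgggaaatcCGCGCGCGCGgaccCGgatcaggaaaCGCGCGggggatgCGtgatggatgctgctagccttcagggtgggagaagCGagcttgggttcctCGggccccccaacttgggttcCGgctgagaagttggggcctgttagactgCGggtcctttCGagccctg
Intron of Hoxc5, chr15:102987532-102987732: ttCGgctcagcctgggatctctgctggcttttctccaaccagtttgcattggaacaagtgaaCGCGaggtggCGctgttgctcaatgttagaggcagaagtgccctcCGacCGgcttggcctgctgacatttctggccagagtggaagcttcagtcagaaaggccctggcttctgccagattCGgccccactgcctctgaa
Start of Hoxd3os1, chr2:74715858-74716058: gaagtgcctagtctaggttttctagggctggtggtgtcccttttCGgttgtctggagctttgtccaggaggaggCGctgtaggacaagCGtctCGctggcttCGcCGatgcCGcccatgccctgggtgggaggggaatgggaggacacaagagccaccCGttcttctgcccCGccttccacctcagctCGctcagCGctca
The Hoxa4 window, upstream of the start of that gene, held 20 CG dinucleotides and was 67.2% G and C. The Hoxc window, in an intron of the longest Hoxc5 transcript, held 7, and the Hoxd window at the start of the antisense RNA Hoxd3os1 held 11. So the strongest region was at a Hox gene start in Hoxa and away from one in Hoxb, Hoxc and Hoxd, in Hoxb and Hoxc by a margin within the spread between replicates.

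Of the 100 regions, 77 were found in both replicates (77.0%), beside 81.1% of regions over all chromosomes. In these 77 shared regions the signal value of replicate 2 over that of replicate 1 had a median log2 ratio of -0.02 with an SD of 0.25 across regions, and 1 region differed by more than 1.5-fold. This spread between the 2 replicates is the measure against which values of single regions stand below. It covers only regions found in both lists, and is not the error of a cluster median or count. Nor is it known to be a spread between animals. With 1 group and 2 replicates no test was made, and both values are given throughout, replicate 1 first. An open region in few cells cannot be told apart from a weaker opening in many. The labelled cell type was checked on the same lists of regions. A shared region lay within 1 kb of a transcript start for 65.9% of all coding genes, and for 10 of 10 genes that define T cells, from Lat (12.0 and 11.9) to Cd4 (2.29 and 2.33), 8 of 8 T-helper 1 genes, 3 of 6 B cell, 2 of 6 myeloid, 6 of 8 stem and progenitor and 0 of 5 hepatocyte genes. Among open genes the T cell lists were not the higher ones: median signals were 7.51 and 7.42 for T cell, 6.92 and 6.40 for T-helper 1, 8.36 and 8.60 for B cell and 8.54 and 8.38 for myeloid genes.

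The clusters differed in the number of open regions and in how often the replicates shared them. Hoxa held 19 shared regions of 22, Hoxb 27 of 30, Hoxc 13 of 22 and Hoxd 18 of 26. Hoxc thus had 59.1% of its regions in both replicates and Hoxd 69.2%, below the 86.4% of Hoxa and the 90.0% of Hoxb. The Hoxc regions of a single list were 6 in replicate 1 and 3 in replicate 2, those of Hoxd 5 and 3. The 23 Hox regions of a single list had signal values between 1.87 and 4.15 with a median of 2.42, and widths between 188 and 882 bp with a median of 262 bp. Most were thus weaker and narrower than the shared Hox regions, whose medians were 4.15 (mean of both replicates) and 837 bp.

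Counted per length, the shared regions were at 13.1 per 100 kb in Hoxa, 12.6 in Hoxb, 8.35 in Hoxc and 13.2 in Hoxd, while the whole genome had 3.1. Among genome stretches as long as Hoxc, 14.8% held at least as many shared regions. For Hoxa, Hoxb and Hoxd this share was 3.14%, 3.01% and 3.22%. They covered 14.7%, 10.4%, 7.54% and 12.9% of the 4 stretches. Hoxc was thus lowest in shared regions by both measures, while regions of either list numbered 22 in Hoxc and in Hoxa alike. Hoxb is longer than the others because Hoxb13 stands 74.0 kb from Hoxb9, and that gap held 10 shared regions, 13.5 per 100 kb, beside 15.5 per 100 kb from Hoxb9 to Hoxb1.

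**Figure D1:**
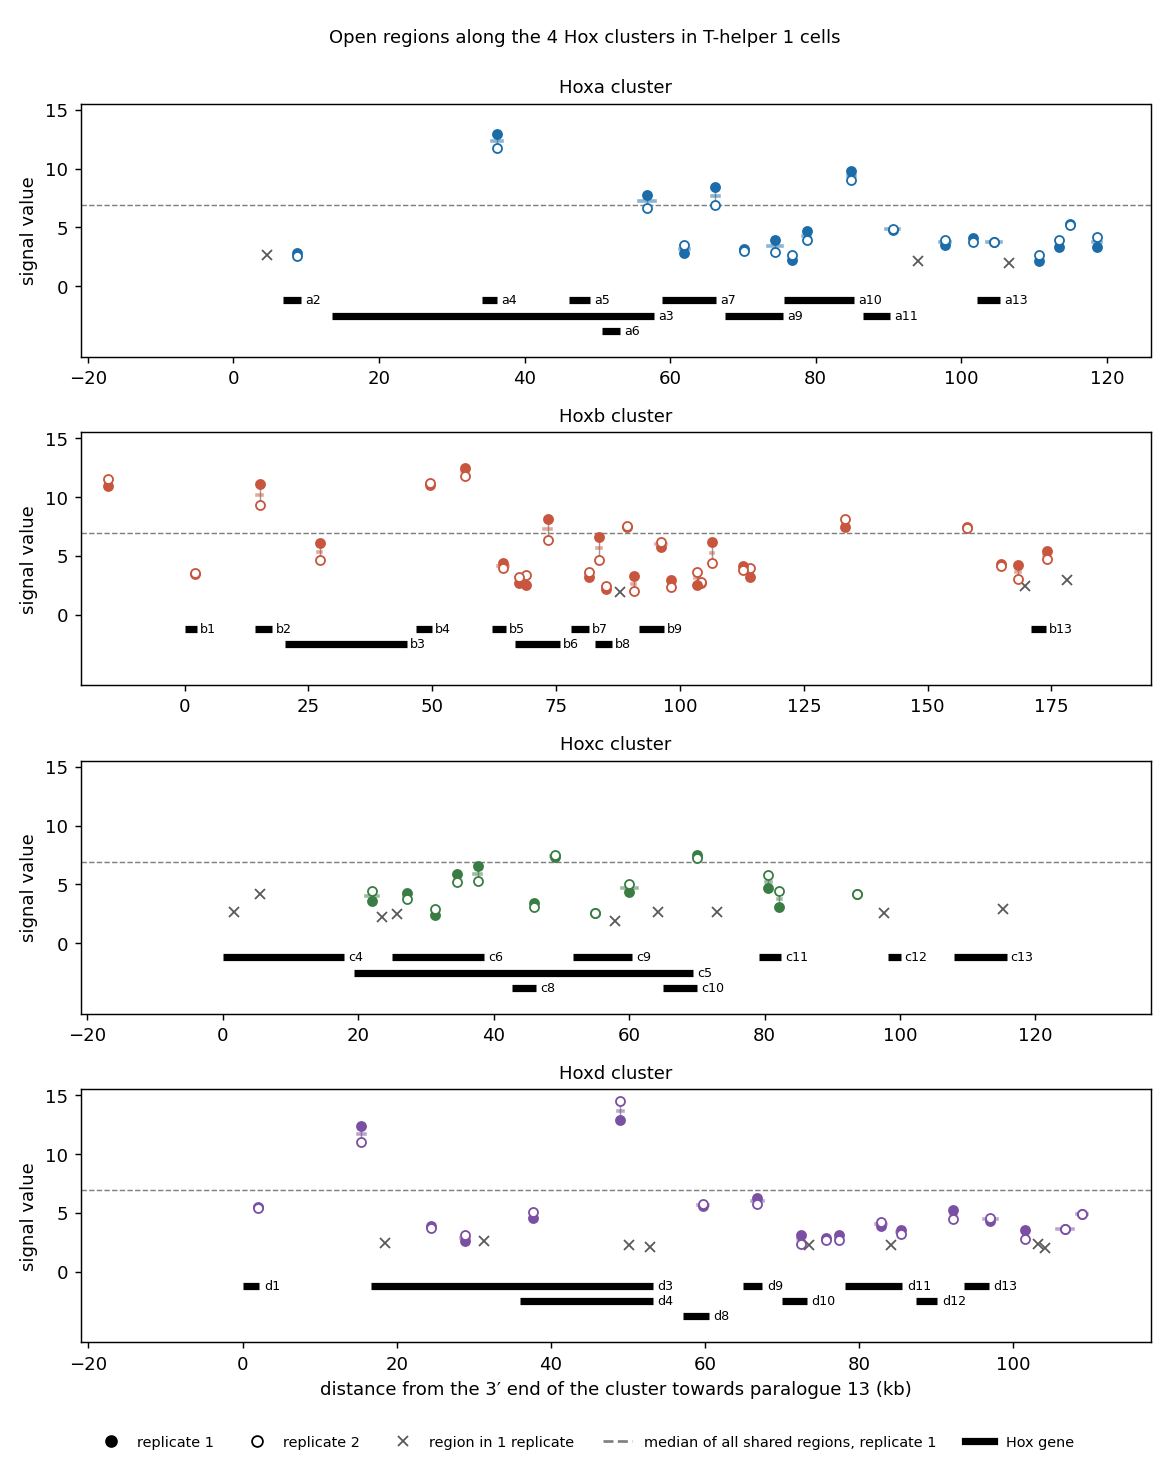
Signal value (vertical axis, no unit) of open regions against their distance in kb from the 3′ end of the cluster (Hoxc4 in Hoxc, paralogue 1 in the others), 1 panel per cluster. Filled and open circles are replicates 1 and 2 of a region found in both, a coloured bar shows the region's width, crosses are regions of 1 replicate only, black bars are the Hox genes and the dashed line is the median of all shared regions in replicate 1 (6.92). Circles above 10 are few, at Hoxa4, around Hoxb4, at Hoxb2, beyond Hoxb1 and within and beside Hoxd3, and no Hoxc region passes 7.5.

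In signal the 4 clusters lay close together and low. The signal value is the enrichment the authors' region caller assigned, and the reference it is relative to was not stated. Median values were 3.93 and 3.91 in Hoxa, 4.41 and 4.15 in Hoxb, 4.24 and 4.45 in Hoxc, and 4.08 and 4.38 in Hoxd. Hoxa was lowest in both replicates and the order of the other clusters was not the same in both. This order did not hold in other settings. With the regions of 1 list alone, Hoxc (3.24) and Hoxd (3.64) were below Hoxa (3.76) in replicate 1 and Hoxd (3.59) below Hoxa (3.91) in replicate 2, and ranked by −log10 q Hoxa was first. The middle 50% of Hoxa regions ran from 3.21 to 6.53 in replicate 1, which contains all 4 medians. Over all 77 regions the medians were 4.24 and 4.20, beside 6.92 and 6.72 over all 84380 shared regions of the genome, and 60 of 77 were below the genome median in both replicates.

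The clusters differed more in their strongest regions. The region of highest mean signal had 12.9 and 11.7 in Hoxa, 12.5 and 11.8 in Hoxb, 7.33 and 7.48 in Hoxc, and 12.9 and 14.5 in Hoxd. Values of at least 10 in both replicates were reached by 7 Hox regions (9.09%), beside 24.9% of all shared regions. Of these 7, 2 lay in Hoxa, 3 in Hoxb, none in Hoxc and 2 in Hoxd.

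In width the order was another. Median widths were 1003 bp in Hoxa, 902 bp in Hoxd, 812 bp in Hoxc and 718 bp in Hoxb, beside 736 bp over all shared regions and 1214 bp over shared regions at coding promoters. With the regions of 1 list alone Hoxc was the narrowest cluster, at 527.5 bp in replicate 1 and 517.5 bp in replicate 2, beside 664 and 637 bp in Hoxb. The widest region of each cluster was not its strongest. In Hoxa it spanned 2234 bp over the far upstream start of Hoxa3 (7.78 and 6.61), in Hoxb 1925 bp over the start of Hoxb5 (4.41 and 3.93), in Hoxc 2130 bp over the start of Hoxc9 (4.32 and 5.03) and in Hoxd 2071 bp at the start of Evx2 (3.64 and 3.59), the even-skipped homeobox gene beside Hoxd13. Shared regions at a Hox start had a median width of 1009 bp and the 38 others 654 bp, while their median signals were alike (4.28 and 4.44 against 4.19 and 4.15).

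**Figure D2:**
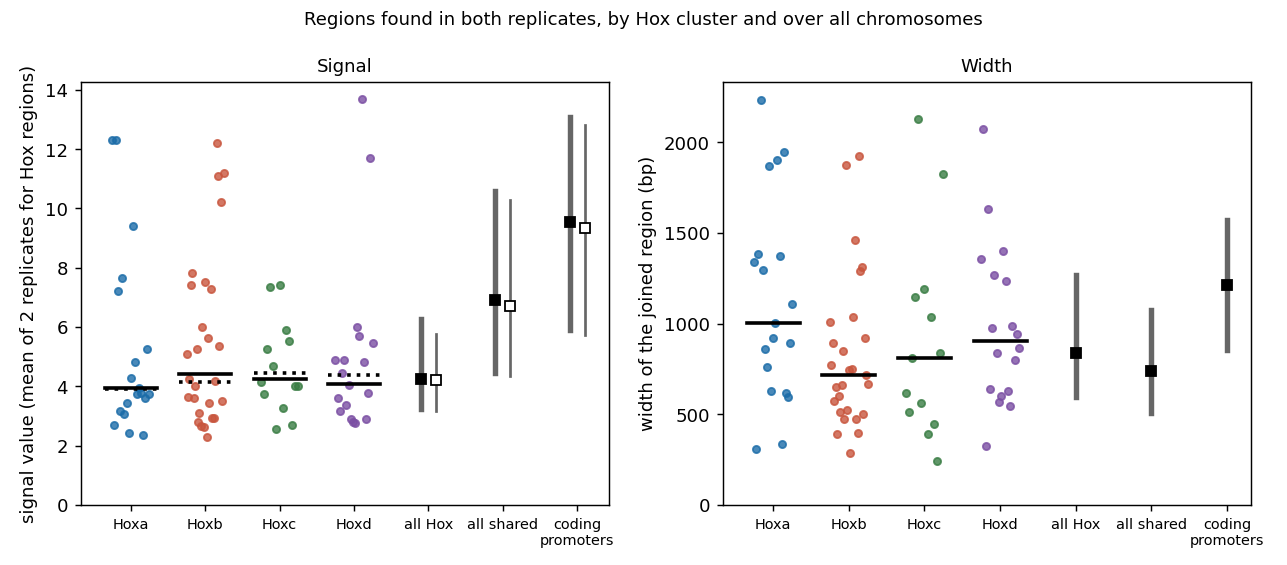
Signal value (left, no unit) and width in bp (right) of the regions found in both replicates, 1 point per Hox region by cluster, with the mean of both replicates as its signal. Solid and dotted lines are the cluster medians in replicates 1 and 2, and squares with bars are the median and the middle 50% for all Hox regions, all shared regions and shared regions at coding promoters (filled for replicate 1, open for replicate 2). The Hox medians of 4.24 and 4.20 lie below those of all shared regions, 6.92 and 6.72, while the Hox widths lie above.

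A promoter was called open when a shared region lay within 1 kb of any annotated transcript start. By this rule 32 of 39 Hox genes (82.1%) had an open promoter, beside 65.9% of all coding genes: 9 of 11 in Hoxa, 9 of 10 in Hoxb, 6 of 9 in Hoxc and 8 of 9 in Hoxd. Their regions were weak for promoters. The median promoter signal of the open Hox genes was 4.67 and 4.81, beside 11.3 and 11.1 for open coding genes, and 27 of 32 lay under the 25th percentile of those in both replicates. Among regions with −log10 q of at least 5, 28 Hox genes were open (71.8%, all coding genes 64.8%). Among the 50000 regions of highest −log10 p in each list, 9 were (23.1%, all coding genes 58.7%), among them Hoxa4, Hoxa7, Hoxa10, Hoxb4 and Hoxc10. Counting the starts of coding transcripts alone, 31 were open (79.5%, all coding genes 64.5%), Hoxb3 being the gene that dropped out.

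Hoxa held strong and weak promoters. Hoxa4, a gene of the neck vertebrae, had 12.9 and 11.7 in a region of 1383 bp. By contrast Hoxa2, which gives the second branchial arch its identity, had 2.78 and 2.58, near the bottom of all open promoters (percentiles 1.09 and 0.678). Between Hoxa2 and Hoxa4 was a gap of 26.6 kb without a shared region, in which the main starts of Hoxa3 lie. Hoxa3, needed for the thymus and parathyroid, counted as open through a start far upstream, beyond Hoxa6, with 7.78 and 6.61.

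Hoxa5, known from lung development, and Hoxa6 were the Hoxa genes without a region at their starts in either replicate. Both start inside a gap of 18.9 kb between the Hoxa4 region and the upstream Hoxa3 region. Further towards Hoxa13, Hoxa7 had 8.45 and 6.86 and Hoxa10, required in the uterus, had 9.79 and 9.02. Hoxa9, the Hox gene best known from blood stem cells and leukaemia, was much weaker at 3.93 and 2.94, in a region at a start of noncoding transcripts that also holds the microRNA gene Mir196b. Hoxa11 had 4.76 and 4.89, in a region that also lies within 1 kb of a start of its antisense transcript Hoxa11os. Hoxa13, a gene of digits and genital tubercle, had 3.76 and 3.75. The weakest shared Hoxa region, 2.10 and 2.64, lay beyond Hoxa13 at the small RNA gene Gm27866. Hottip, a long noncoding RNA beside Hoxa13, had no shared region at its start.

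In Hoxb a single promoter stood out. Hoxb4, which expands blood stem cells when overexpressed, had 11.0 and 11.2 in a region of 1314 bp, near the middle of all open promoters (percentiles 47.7 and 50.7). The other open Hoxb promoters ran from 2.16 to 6.09 in replicate 1 and from 2.42 to 6.21 in replicate 2, so none reached Hoxb4 in either replicate. Next came Hoxb9 with 5.77 and 6.21, Hoxb3 with 6.09 and 4.61 at a start of noncoding transcripts, and Hoxb13, a prostate gene, with 5.42 and 4.73. Hoxb1, active in a single hindbrain segment, had 3.46 and 3.53. Hoxb5 had 4.41 and 3.93, Hoxb6 2.51 and 3.37, and Hoxb7 3.23 and 3.61. Hoxb8, expressed in microglial precursors, had the weakest shared region of the cluster, 2.16 and 2.42.

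Hoxb2 had no shared region within 1 kb of a start. The nearest began 1051 bp away, over an exon of Hoxb2 and of the antisense gene Hoxb3os, and was strong at 11.1 and 9.29, so this call hangs on the distance: within 2.5 kb of a start all 10 Hoxb genes were open. The strongest Hoxb region, 12.5 and 11.8, lay between genes, and another of 10.9 and 11.5 lay beyond Hoxb1, 17163 bp from its start. With Hoxb4 itself, these were the Hoxb regions with at least 10 in both replicates.

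Hoxc had the smallest share of open promoters. The 6 open ones had median signals of 5.44 and 5.14, beside 7.78 and 6.61 in Hoxa, 4.41 and 3.93 in Hoxb and 4.43 and 4.83 in Hoxd. These Hoxc medians count the region of Hoxc10 and Hoxc5, the strongest of them, for both genes. No order of Hoxc against Hoxb and Hoxd is therefore drawn from them. Hoxc10, a gene of lumbar motor neurons, had 7.50 and 7.21, and the same region served a far upstream start of Hoxc5, the only region of the 4 clusters that was the strongest for 2 Hox genes. Hoxc6 followed with 6.55 and 5.25 at a start of noncoding transcripts, and its other promoter region had 4.24 and 3.76. Hoxc9, which sets thoracic motor neuron identity, had 4.32 and 5.03, Hoxc11 3.05 and 4.45, and Hoxc8 3.43 and 3.11. The 3 Hoxc genes without a shared region were at the 2 ends: Hoxc4 (2.63) and Hoxc13, a hair follicle gene (2.91), each had a region in replicate 1 only, and Hoxc12 had none in either. The strongest region of the cluster, 7.33 and 7.48, lay in the Hoxc5 intron, 2244 bp from the start of Hoxc8, and was level with the Hoxc10 region within the spread between replicates. The weakest shared one, 2.56 in both replicates, covered an exon of Hoxc9. Hotair, a long noncoding RNA of this cluster, had no shared region at its start.

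In Hoxd the Hox promoters were even and low, and the strong regions lay at starts of noncoding RNAs. Values ran from 3.14 to 6.27 in replicate 1 and from 2.37 to 5.77 in replicate 2. Hoxd9 had 6.27 and 5.73, Hoxd8 5.60 and 5.77, and Hoxd1, known from pain-sensing neurons, 5.54 and 5.38. Hoxd4 had 4.57 and 5.07, Hoxd13, the digit gene, 4.28 and 4.60, Hoxd11, needed for the forearm, 3.86 and 4.25, and Hoxd3 3.88 and 3.69. Hoxd10 had 3.14 and 2.37, by the mean of both replicates the weakest shared region of the cluster, with others within the spread between replicates, and Hoxd12 had no region within 1 kb, the nearest being 1781 bp away. The region at the start of Hoxd3os1, an antisense RNA that begins within the longest Hoxd3 and Hoxd4 transcripts, had 12.9 and 14.5 over 630 bp. The region at an internal start of Haglr, a long noncoding RNA between Hoxd3 and Hoxd1, had 12.4 and 11.0 over 940 bp. The outermost start of Haglr lay in the Hoxd1 promoter region, of 5.54 and 5.38. The regions at Hoxd3os1 and inside Haglr were more than 1.5-fold above every Hoxd gene promoter in each replicate, where the spread between replicates had an SD of 0.25 in log2.

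**Figure D3:**
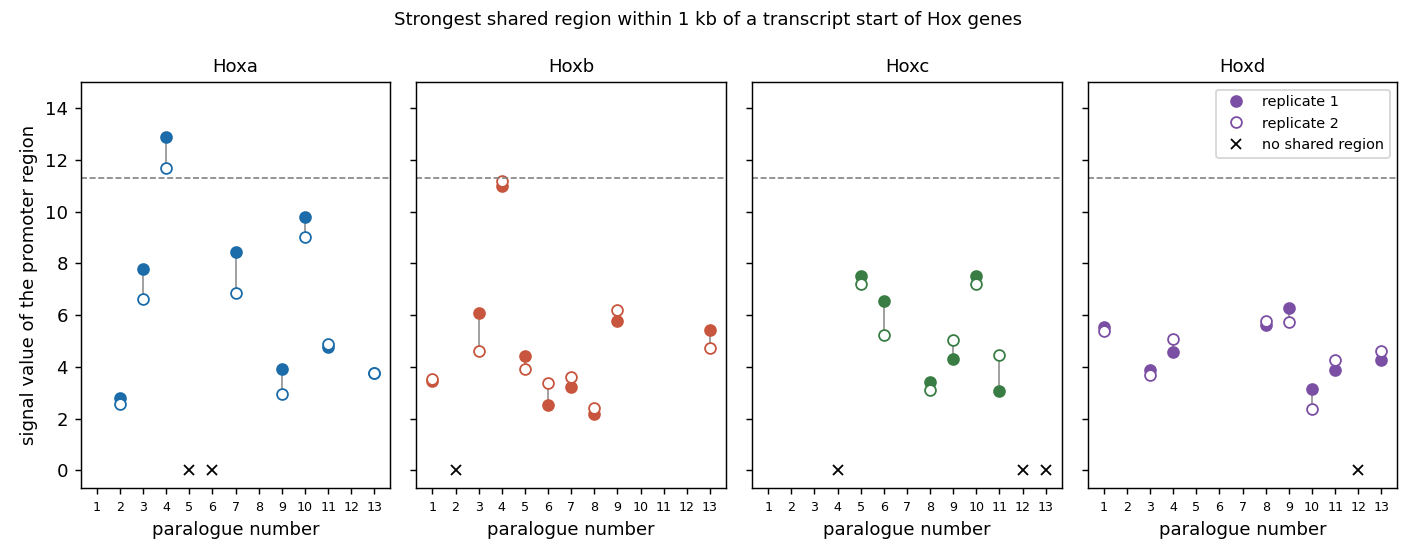
Signal value (vertical axis, no unit) of the strongest shared region within 1 kb of a start of Hox genes, by paralogue number, 1 panel per cluster. Filled and open circles are replicates 1 and 2, crosses drawn at 0 are genes without a shared region, and the dashed line is the median of all open coding promoters in replicate 1 (11.3). Hoxa4 lies above that line in both replicates and Hoxb4 just under it, and the other promoters drawn lie under 10.

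Compared by paralogue number, genes of the same number shared a level in some groups and not in others. Of the 4 paralogue 4 genes, Hoxa4 (12.9 and 11.7) and Hoxb4 (11.0 and 11.2) were strong, Hoxd4 had 4.57 and 5.07 and Hoxc4 had no shared region. Hoxa10 and Hoxc10 were in the upper range and Hoxd10 at the bottom. Paralogue 9 genes were open in all 4 clusters, from 3.93 to 6.27 in replicate 1 and from 2.94 to 6.21 in replicate 2, and neither paralogue 12 gene had a shared region. The 3 paralogue 11 genes lay close together, from 3.05 to 4.76 and from 4.25 to 4.89, as did the 3 open paralogue 13 genes, from 3.76 to 5.42 and from 3.75 to 4.73. By class, 10 of 12 anterior genes (paralogues 1 to 4) were open with median signals of 5.81 and 5.22, 9 of 11 central genes (5 to 8) with 4.41 and 3.93, and 13 of 16 posterior genes (9 to 13) with 4.32 and 4.73. The central and posterior classes changed places between the replicates.

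Position along the clusters was uneven, and not in the same way. Each gene stretch was divided into 3 parts of equal length from the lowest paralogue number (4 in Hoxc, 1 in the others) to paralogue 13, and a region was placed by its middle. From the first to the last part, Hoxa held 2, 5 and 8 shared regions, Hoxb 5, 16 and 4, Hoxc 5, 5 and 3, and Hoxd 4, 3 and 7. Hoxa and Hoxd were thus densest on the paralogue 13 side, Hoxb around Hoxb5 to Hoxb9 and just beyond, and Hoxc on the Hoxc4 side and in the middle. The flanks differed too. The 20 kb beyond the lowest paralogue was empty in Hoxa, Hoxc and Hoxd and held 1 region in Hoxb, while the 20 kb beyond paralogue 13 held 4 regions in Hoxa, 1 in Hoxb, none in Hoxc and 4 in Hoxd. These include the promoter regions of Hoxb13 and Hoxd13, whose middles lie just outside the genes.

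Along the clusters signal followed position loosely. Spearman's rho of signal with position towards paralogue 13 was -0.20 and -0.14 in Hoxa (15 regions), -0.17 and -0.18 in Hoxb (25), 0.10 and 0.26 in Hoxc (13) and -0.34 and -0.42 in Hoxd (14). These are descriptions of neighbouring regions from the same libraries, and they were weak. The 8 Hoxa regions of the part nearest Hoxa13 had median signals of 4.03 and 3.84. The longest gaps between neighbouring shared regions were the 26.6 kb and 18.9 kb in Hoxa, and 24.2 kb, 21.3 kb and 18.7 kb in Hoxb, whereas none between neighbours passed 10.9 kb in Hoxc or 12.5 kb in Hoxd. At the end of Hoxc, the start of Hoxc13 was 21816 bp from the nearest shared region. In Hoxb the gap of 21.3 kb held starts of Hoxb3.

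The microRNA genes of the clusters repress messenger RNAs, and those of the mir-196 family target Hox transcripts themselves. Their mature sequences, from RefSeq on GRCm38.p6, fall into families by the seed, bases 2 to 8, written in capitals.
mmu-miR-10a-5p (Hoxb): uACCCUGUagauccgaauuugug
mmu-miR-10b-5p (Hoxd): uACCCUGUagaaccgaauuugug
mmu-miR-196a-5p (Hoxb and Hoxc): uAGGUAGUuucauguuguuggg
mmu-miR-196b-5p (Hoxa): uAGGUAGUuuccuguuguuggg
mmu-miR-615-3p (Hoxc): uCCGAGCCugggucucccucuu
The mir-10 genes share a seed and lay outside shared regions, Mir10a 827 bp from the Hoxb4 region of 11.0 and 11.2, Mir10b 995 bp from the Hoxd4 region of 4.57 and 5.07. Of the mir-196 genes, Mir196b lay inside a region of 3.93 and 2.94 and Mir196a-1 overlapped one of 2.53 and 3.65, while Mir196a-2 was 2298 bp from the nearest, at Hoxc9. The mature sequences of Mir615 lay inside a Hoxc5 region of 3.57 and 4.44. So both mir-10 genes lay outside shared regions and 2 of the 3 mir-196 genes overlapped them. The mature RNAs themselves were not measured.

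In CpG content the Hox regions at Hox starts were above coding promoters in the median, and those away from Hox starts lay between coding promoters and other regions. Around the summits of replicate 1 their median share of G and C was 59.7%, and the median ratio of observed to expected CpG was 0.720, beside 49.3% and 0.233 in all shared regions and 61.7% and 0.706 in shared regions at coding promoters. A ratio above 0.6 was found in 46 of 77 Hox regions (59.7%), beside 16.1% of all shared regions and 58.7% of those at coding promoters. Away from Hox starts it was found in 13 of 38 (34.2%), and 9 of these 38 lay at starts of other genes. The ratio was 0.862 in the median of the 39 regions at a Hox start and 0.527 in the 38 others, beside 0.194 in the shared regions of the genome away from coding promoters. By cluster the medians were 0.891 in Hoxa, 0.705 in Hoxb, 0.698 in Hoxc and 0.738 in Hoxd around the summits of replicate 1, and 0.730, 0.709, 0.686 and 0.666 around those of replicate 2, so that Hoxa was first in both. The whole Hoxa and Hoxd stretches had ratios of 0.430 and 0.445, the Hoxb and Hoxc stretches 0.329 and 0.322.

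**Figure D4:**
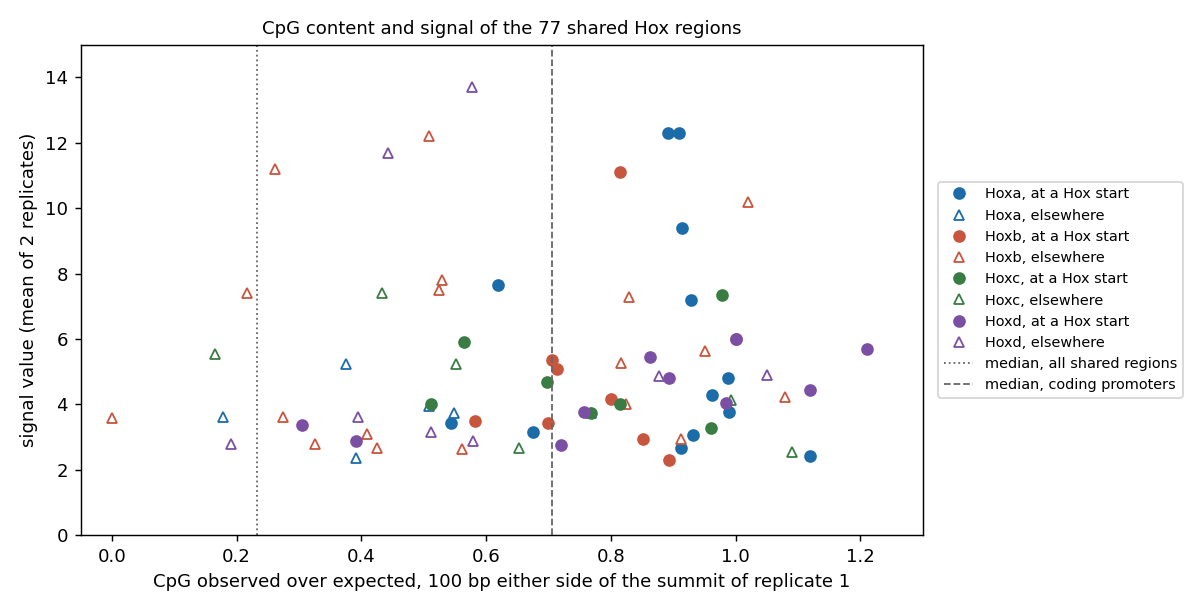
Signal value (vertical axis, mean of both replicates, no unit) against the ratio of observed to expected CpG in 201 bp around the summit of replicate 1, for the 77 shared Hox regions. Filled circles are regions at a Hox start, open triangles the others, coloured by cluster, and vertical lines are the medians of all shared regions (0.233) and of shared regions at coding promoters (0.706). Strong regions are found at both low and high CpG ratios. Above 10 the circles lie to the right, and the triangles to the left except the region over an exon of Hoxb2, at a ratio of 1.02.

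The regions with at least 10 in both replicates differed in sequence. At the starts of Hoxa4 and Hoxb4 the ratio was 0.891 and 0.815. At Hoxd3os1 it was 0.577, at the internal Haglr start 0.442 and in the flank beyond Hoxb1 0.261. Summits of all 7 such regions lay at most 26 bp apart between the replicates, whereas the median over all 77 was 36 bp, and 13 bp over all shared regions.

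Motifs were searched by their letters on both strands in the same windows, and a match describes the letters only. GGGCGG, the box bound by SP and KLF factors, was in 20 of 77 Hox windows (26.0%), beside 14.0% of all shared regions and 44.7% of those at coding promoters. Letters of factors that act in activated and T-helper 1 cells were counted without a test: TGTGGT (Runx) in 8 windows (10.4%, all 22.8%), TGANTCA (AP-1) in 5 (6.49%, all 26.0%), GGTGTGA (T-box) in 0 (all 4.62%) and CCGGAAGT (ETS) in 0 (all 1.37%). At coding promoters they were at 12.4%, 10.1%, 2.86% and 4.61%. The pooled Runx and AP-1 shares were thus nearer to those of coding promoters than to those of all shared regions. Split by place, they were below those of matching regions. At Hox starts Runx was at 2.56% and AP-1 at 7.69%. Away from Hox starts they were at 18.4% and 5.26%, beside 25.5% and 30.3% of shared regions not at a coding promoter. These shares rest on few windows. TAATTA, bound by homeodomains, was in 3 windows (3.90%, all 2.09%), all 3 at Hox starts. The Hoxc10 promoter held the homeodomain letters, an AP-1 match and the CRE letters TGACGTCA, bound by CREB factors, within 45 bp of its summit.

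CTCF, which marks the borders between active and silent parts of Hox clusters in other cell types, was searched by its core motif. Only exact matches to its letters were counted. A site that departs from them is missed, so the lack of a match does not show the lack of a CTCF site. No Hox window held the core motif (0 of 77, all shared regions 4.20%). The 4 whole stretches held a single match, CCACTAGGGGGC on the minus strand at chr11:96265875-96265886, 5571 bp from the start of Hoxb9 and outside every region. A shorter form, AGNNGGCGC, was chosen after the sequences had been seen, because the Hoxc and Hoxd windows shown above share it, and nothing is supported with it. It was in 9 of 77 Hox windows (11.7%), beside 5.49% of all shared regions, and around the summits of replicate 2 in 10 (13%), beside 9.76% of shared regions at coding promoters. In the Hoxc5 intron it reads AGGTGGCGC at chr15:102987598-102987606, 30 bp from the summit, and at Hoxd3os1 AGGAGGCGC at chr2:74715926-74715934, 28 bp from the summit.

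Genes that control or accompany the Hox genes are given beside all coding genes, of which 65.9% had an open promoter, with median signals of 11.3 and 11.1. All 30 genes of the Polycomb complexes had an open promoter, with medians of 12.6 and 12.1, from Ezh1 (16.3 and 16.1), a methyltransferase of histone H3, down to Ring1 (3.26 and 3.41), a ubiquitin ligase. So did all 12 genes listed with Trithorax and MLL (11.9 and 11.5), from Mllt1 (18.1 and 16.6) to Dot1l (3.95 and 3.74). Not all of these 12, and neither of the 2 named, are subunits of those complexes. All 8 genes of chromosome architecture were open as well (10.4 and 10.6). The 9 Hox partners of the TALE class, which bind DNA together with Hox proteins, had 11.4 and 11.4, and Pbx2 was lowest (1.94 and 2.07). Of the histone demethylases Kdm6a had 11.5 and 11.5 and Kdm6b no shared region within 1 kb. Inputs from retinoic acid and Cdx factors were open in 8 of 10 genes (5.98 and 6.25), Cdx1 and Cdx4 being without.

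Other developmental genes had open promoters of similarly low signal. Of 43 other developmental transcription factors 38 (88.4%) were open, with medians of 4.97 and 4.89, beside 4.67 and 4.81 for the Hox genes. The Gsx, Pdx and Evx homeobox genes, close relatives of the Hox genes, were open in 5 of 5 cases with medians of 5.23 and 6.13. They ran from Pdx1 (9.56 and 10.3), the pancreas gene, to Evx2 (3.64 and 3.59). The Cdx genes, also of the ParaHox group, were counted above with retinoic acid. Of these, Cdx2 had 2.96 and 3.85, and Cdx1 and Cdx4 had no shared region at a start. Of the coding genes that flank the clusters most had higher signals, but Skap1 near Hoxb did not. The flanking coding genes were open in 10 of 12 cases with medians of 13 and 12.7, among them Cbx5 near Hoxc (16.5 and 17.2), Lnpk near Hoxd (16.1 and 16.0), and Skap2 near Hoxa (15.0 and 14.1). Skap1 near Hoxb, an adaptor of T cell adhesion, had 3.90 and 4.00, and Ttll6 and Calcoco2 had no shared region at a start.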

How the data were processed

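The deposited files are 2 lists of open regions, each called by the authors from 1 replicate, on mm10 per the labels. Which aligner and caller were used is not given in the sources used here. Per the file layout, the deposited signal value is the caller's enrichment of a region, and the deposited −log10 p and −log10 q values, the latter at least 1.01 and 1.00, were used to filter and rank. The score deposited by the authors was not used. Reads per list, and so counting intervals, are unknown.

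Regions on chromosomes 1 to 19, X and Y were used (89 and 85 others left out). Regions overlapping by at least 1 bp were joined with Python 3.11.15, pandas 2.3.3 and numpy 2.4.6, and the strongest region of each replicate gave the values. Transcript starts are those of GENCODE M21. Joining, promoter and motif steps were tested on simulated data. Figures were drawn with matplotlib 3.10.9.

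Named were the Hox genes, the strongest, weakest and widest region of each cluster, those holding the CTCF core or starts of several Hox genes, and list members of highest and lowest signal or without a region. Regions with both signals of at least 10 and further members beyond this rule were named after their values were seen. A gene of the Hoxa list, a gene of the TALE list and the sequence of a Hoxb region are not reported here, and that Hoxa gene and its region were left out of the maps and of the promoter plot. Members and lists were chosen with earlier results of these data known. Alternatives were the length of the flanks, the overlap, the region threshold, the distance to a start and each replicate left out. Whether the 2 samples are separate animals is not stated.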

Additional observations from a re-analysis of the deposited data

How the results depend on the processing

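With the 50000 regions of highest −log10 p per list, shared regions fell to 7 in Hoxa, 6 in Hoxb, 2 in Hoxc and 2 in Hoxd. Their median signals (mean of the replicates' medians) became 7.66, 10.6, 7.38 and 12.7 and their median widths 1339, 1105, 1170 and 785 bp. Open genes fell to 1, 2 and 0 in Hoxb, Hoxc and Hoxd, and from 82.1% to 23.1% of all Hox genes. Of all coding genes the open share went from 65.9% to 58.7%. What lies behind the fall was not tested. At −log10 q of at least 5 the median signals were 4.23, 5.39, 4.81 and 4.74, and the widths of Hoxa, Hoxc and Hoxd 1201, 936.5 and 957 bp. With an overlap of at least 50% of both regions the signals were 3.88, 4.58, 4.51 and 4.59, and the widths of Hoxc and Hoxd 715.5 and 940 bp. Without flanks Hoxa had 4.02 and 1293 bp and Hoxd 864 bp. With flanks of 50 kb Hoxa had 4.39 and Hoxb 4.98.

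Leaving out each replicate gave regions of 21 to 22 in Hoxa, 29 in Hoxb, 16 to 20 in Hoxc and 23 in Hoxd, signals of 3.76 to 3.91, 3.99 to 4.31, 3.24 to 4.29 and 3.59 to 3.64, widths of 813.5 to 919, 637 to 664, 517.5 to 527.5 and 637 to 643 bp, and open genes of 9, 9, 6 to 8 and 8. Ranked by −log10 q in place of signal, Hoxa moved from place 4 to 1, Hoxc from 1 to 3 and Hoxd from 3 to 4, and Hoxb kept place 2. The cause was not tested. In the other alternatives counts stayed within 1.5 times and medians within 1 SD of the values of the 2 replicates. This SD is that of a cluster's 2 replicate medians and not the spread across regions given above. Taking Hoxb from Hoxb9 to Hoxb1, chosen after the data were seen, gave 22 regions with a median signal of 4.12 and width of 691 bp. No paired analysis was possible because there is a single group. With 2 replicates of unknown read depth, regions near the caller's threshold cannot be called absent.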
